A study of Mus musculus with 9 samples.

Results

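The 6 libraries of cultured mouse lung explants, of 9 libraries in the series, were examined for genes that vary together between libraries of the same treatment. All were made from wild-type E11.5 lungs (an embryonic day at which the airway buds branch) and kept in culture for 72 h. Controls (3 libraries) had no drug named in their labels, and the other 3 libraries came from explants given EPZ5676, a small-molecule inhibitor of DOT1L, an enzyme that methylates histone H3. The 3 fresh E11.5 libraries were not used. Each gene's log2 CPM (counts scaled to a common library size) was centred on the mean of its own treatment, so every deviation below is a difference between libraries that received the same treatment, and no treatment was tested against the other. Only autosomal genes entered, and 14112 passed the filter on low counts. The labels give the tissue as lung but not whether replicate libraries are different embryos or different dishes, so each p-value is relative to library-to-library spread, part of which may be technical. No dose or batch is given in the labels.

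An explant of early lung holds epithelial buds, the mesenchyme around them, vessels, nerve and glial precursors, blood cells and, depending on the dissection, pieces of trachea or of neighbouring organs. In such tissue, epithelium at the proximal end forms airway cells (ciliated, secretory, basal and neuroendocrine cells), and epithelium at the tips forms the alveolar type 1 and type 2 cells that carry gas exchange and make surfactant. In bulk RNA, a gene set that is low in a library can reflect fewer cells of a type or less RNA per cell, and these cannot be told apart. Members were placed in 34 lists of marker and cell-state genes, and 5 genes stood for a lineage each: Sftpc (surfactant protein C, alveolar type 2 cells), Scgb3a2 (a secretoglobin of airway secretory cells), Acta2 (smooth muscle actin), Col2a1 (type II collagen of cartilage) and Afp (alpha-fetoprotein, fetal liver).

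Libraries held 6509563 to 9861452 counts, and 9263 of 14112 genes (65.6%) varied between libraries of a treatment beyond counting noise (Poisson deviance, adjusted p under 0.05). The median gene had a standard deviation (SD) of 0.223 on the centred log2 CPM scale, with quartiles of 0.14 and 0.358. Lung identity was present in each library: Nkx2-1, the lung endoderm factor, ranged from 71.7 to 96.6 TPM (transcript abundance scaled by length and depth), Epcam from 132.5 to 244.3 TPM and Tbx4, a lung mesenchyme factor, from 42.1 to 66.9 TPM. Control 1 and EPZ5676 1 were the deepest libraries and both stood at the same end of the main pattern below. With counts thinned to equal depth, an alternative chosen after seeing the data, 933 genes varied with Sftpc, and 828 were among the 889 found without thinning. The female-specific transcript Xist was high in Control 1, Control 2 and EPZ5676 2 (209.7 to 280.7 TPM) and low in the other libraries (0.25 to 0.77 TPM); its relation to the patterns below was not tested.

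The pattern that covered most genes set Sftpc against cartilage, vessel and smooth muscle genes. Sftpc was at 142, 372 and 1111 TPM in Control 1, 2 and 3 and at 501, 1445 and 691 TPM in EPZ5676 1, 2 and 3. Col2a1 was at 78.0, 25.9 and 8.29 TPM in the controls and at 43.5, 9.61 and 22.4 TPM in the EPZ5676 libraries. In both treatments the library with the most Sftpc therefore had the least Col2a1, and the library with the least Sftpc had the most. Over the 6 centred libraries, Pearson's r between them was -0.987 and Spearman's rho was -0.943 (exact two-sided permutation within treatments, p = 0.0556 and 0.0833, adjusted over 10 gene pairs to 0.37 and 0.555). Without the 2 libraries farthest from the median of Sftpc, Control 3 and Control 1, r was -0.978. That value rests mostly on the EPZ5676 libraries (r = -0.979 among them). Control 2, the control that remained, lay near its treatment mean for both genes (-0.0675 for Sftpc and 0.0197 for Col2a1). None of the 10 pairs passed the adjustment, and 36 arrangements allow no p below 0.0278. The other pairs had r from -0.762 (Sftpc and Afp) to 0.754 (Col2a1 and Afp), and without Control 1 these were -0.185 and 0.399.

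**Figure D1:**
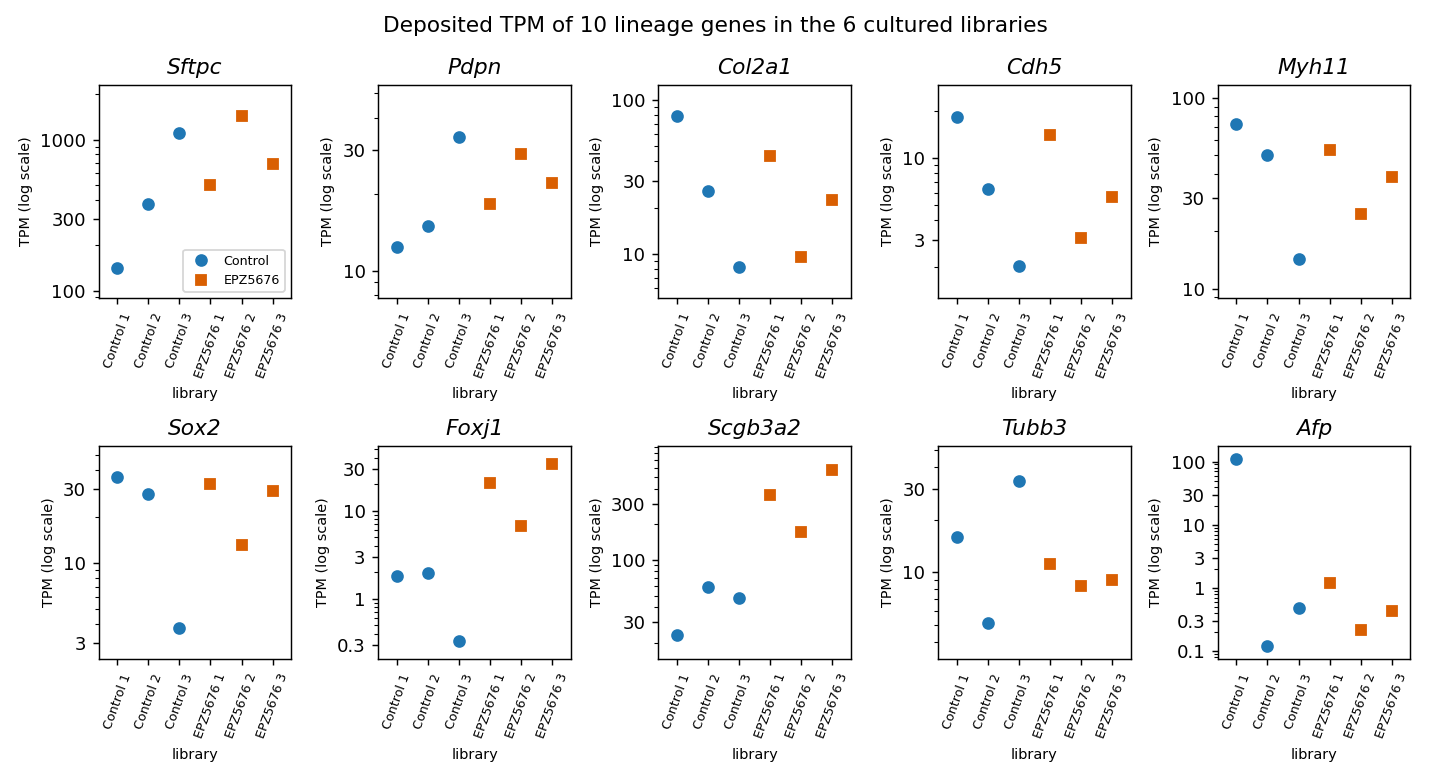
Deposited TPM (y axis, log scale, a separate range in each panel) of 10 genes in each library (x axis), with controls as circles and EPZ5676 libraries as squares; each point is a single library. Sftpc is lowest in Control 1 (142 TPM) and EPZ5676 1 (501 TPM), where Col2a1, Cdh5 and Myh11 are highest within their treatment.

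A slope on Sftpc was then fitted for every gene within treatments (edgeR quasi-likelihood test, Benjamini-Hochberg adjusted p under 0.05). Of 14111 other genes, 889 (6.3%) passed: 563 rose with Sftpc (3.99%) and 326 fell as it rose (2.31%). With Col2a1 in its place, 958 genes (6.79%) passed, 370 rising with it (2.62%) and 588 falling (4.17%). Both fits use the same 6 libraries and nearly mirrored values, and 777 genes passed in both (87.4% of the first set and 81.1% of the second), all in opposite directions. The number of genes rests on single libraries: without Control 1, only 2 genes passed on Sftpc and 2 on Col2a1 (1913 and 1675 at an unadjusted p under 0.05), and without Control 3, EPZ5676 1 or EPZ5676 2 the count on Sftpc was 232, 241 and 248. The direction split also depends on scale. On log2(TPM + 1), 156 genes rose with Sftpc and 1226 fell, so 11.3% of the calls rose against 63.3% on counts, and the median slope of all genes moved from -0.00514 to -0.111.

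Endothelial genes had some of the steepest falls against Sftpc. Of 19 members tested, 8 fell and none rose, and the list's median slope was -0.56 against -0.0051 for all tested genes, in log2 units per log2 unit of Sftpc. Cdh5, the cadherin of vessel junctions, was at 18.3, 6.36 and 2.03 TPM in Control 1, 2 and 3 and at 14.0, 3.09 and 5.61 TPM in EPZ5676 1, 2 and 3. It was highest in Control 1 and EPZ5676 1 and lowest in Control 3 and EPZ5676 2, with a slope of -0.91 (SE 0.095, edgeR adjusted p = 0.00332). Kdr, the main VEGF receptor, was among the 3 genes most opposite to Sftpc over the 6 libraries (r = -0.998), at 11.3, 4.78 and 1.71 TPM in the controls and 6.94, 2.86 and 4.67 TPM in the EPZ5676 libraries. Tie1, an endothelial receptor kinase, had a slope of -0.93 (SE 0.12, edgeR adjusted p = 0.00622), and Mmrn2, an endothelial matrix protein, a slope of -0.99 (SE 0.17, edgeR adjusted p = 0.0156). Robo4, a vessel guidance receptor, fell overall (slope -1.12, SE 0.22, edgeR adjusted p = 0.0276) although its highest value, 2.62 TPM, was in EPZ5676 3. On log2(TPM + 1) the slope of Mmrn2 was -0.57 and that of Robo4 -0.48, and Robo4 did not pass (limma adjusted p = 0.0632). Over the list, 18 of 19 members were above their treatment's mean in Control 1 and 17 in EPZ5676 1, against 1 in Control 3 and 5 in EPZ5676 2. The median slope stayed between -0.57 and -0.62 when any library was left out, but no member passed without Control 1.

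The cartilage list showed the same direction. Of 15 tested members of the tracheal cartilage list, 8 fell as Sftpc rose and none rose, with a median slope of -0.47. Col9a1, a collagen of the cartilage fibril surface, was at 40.5, 7.77 and 4.39 TPM in the controls and 21.6, 7.67 and 10.2 TPM in the EPZ5676 libraries, highest in Control 1 and EPZ5676 1 within their treatments. Its slope was -0.89 (SE 0.12, edgeR adjusted p = 0.0116), and that of Col2a1 itself was -0.91 (SE 0.065, edgeR adjusted p = 0.00236). Acan, the large cartilage proteoglycan, was at 3.68 and 0.76 TPM in Control 1 and 2, was listed at 0 in Control 3, and was at 1.73, 0.56 and 0.45 TPM in the EPZ5676 libraries. Hapln1, which links that proteoglycan to hyaluronan, did not share the pattern in the treated libraries, where it was highest in EPZ5676 3 (14.9 TPM, against 8.33 and 1.07 TPM). In the cartilage list, 14 of 15 members were above the mean in Control 1 and 14 in EPZ5676 1. Matn1, a matrilin of mature cartilage, was at or near 0 in all 6 libraries (0 to 0.09 TPM). Among the 5 genes most like Col2a1 over the 6 libraries were Myom1, a sarcomere protein (r = 0.998), Cdh5 (r = 0.998) and Notch4, an endothelial Notch receptor (r = 0.996).

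Smooth muscle genes were among several further lists with falls and no rises. Of 17 tested members, 5 fell against Sftpc and none rose, with a median slope of -0.25. Myh11, the smooth muscle myosin heavy chain, was at 73.1, 49.9 and 14.2 TPM in the controls and 53.2, 24.5 and 38.4 TPM in the EPZ5676 libraries. Actg2, an actin of smooth muscle, followed with 157, 116 and 32.4 TPM and 113, 51.1 and 88.0 TPM. Both were lowest in Control 3 and EPZ5676 2, and their slopes were -0.58 (SE 0.076, edgeR adjusted p = 0.00937) and -0.56 (SE 0.080, edgeR adjusted p = 0.0112). Acta2 itself varied less, at 405, 276 and 247 TPM in the controls and 344, 194 and 323 TPM in the EPZ5676 libraries. No gene passed the slope on Acta2 (edgeR lowest adjusted p = 0.282; 1132 genes at an unadjusted p under 0.05, and 40 genes passed with DESeq2). The gene most opposite to Acta2 was Upk3b, a mesothelial marker (r = -0.990), at 32.5 TPM in EPZ5676 2 and 7.64 to 14.0 TPM in the others. The mesothelium list, the outer lining of the lung, was also highest in EPZ5676 2 (mean deviation 0.42).

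**Figure D2:**
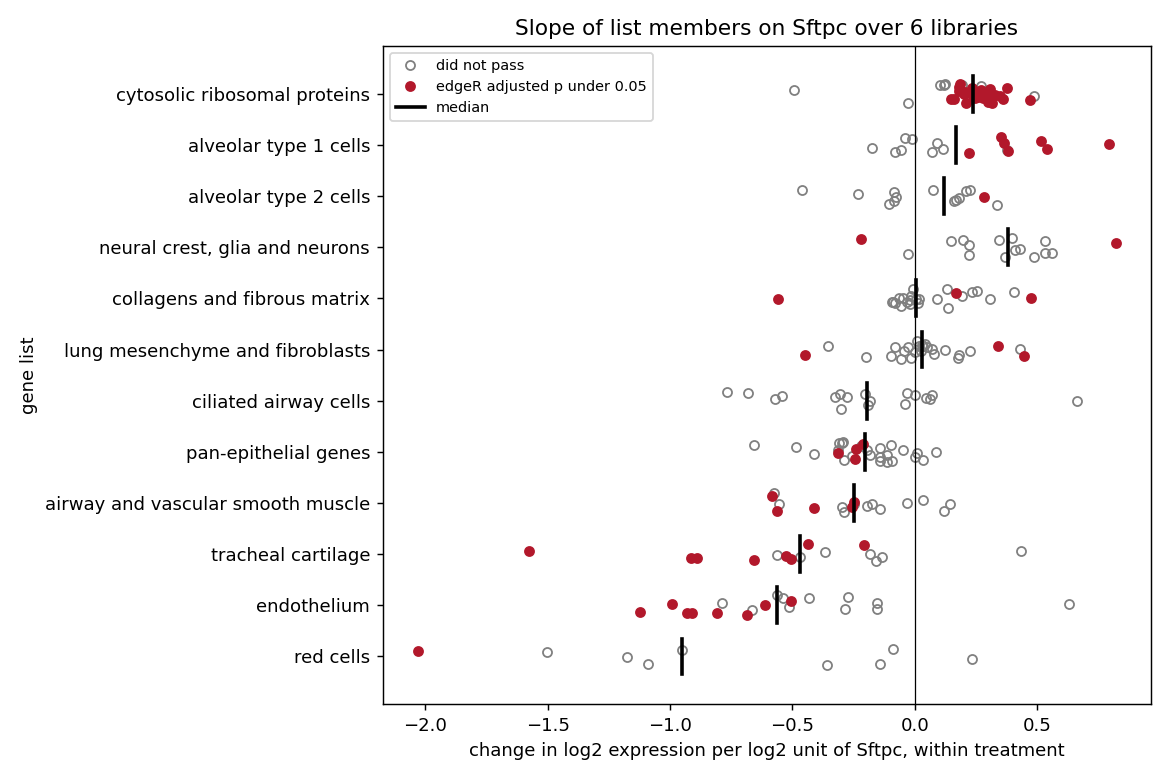
Slope of each list member on Sftpc (x axis, log2 units per log2 unit of Sftpc, fitted within treatment over 6 libraries) in 12 lists (y axis); filled points passed (edgeR adjusted p under 0.05), open points did not, and bars are list medians. Endothelium (median -0.56), tracheal cartilage (-0.47) and red cells (-0.95) lie to the left, and ribosomal proteins (0.24) to the right.

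The red cell list had a median SD of 1.49, the largest of the 34 lists. Hba-a1, an adult-type alpha globin, was at 509, 78.1 and 24.8 TPM in the controls and 407, 13.8 and 170 TPM in the EPZ5676 libraries. Hbb-bs, a beta globin, was at 232, 11.6 and 4.48 TPM and at 65.0, 2.48 and 21.2 TPM, and it was the 1 member of 9 tested that passed (slope -2.03, SE 0.22, edgeR adjusted p = 0.00691). Both globins were high in Control 1 and EPZ5676 1 and lowest in Control 3 and EPZ5676 2, the same order as the vessel genes. Hba-a2 had this order too, but other globins broke it in the controls. Hbb-bt was lowest in Control 2 (1.57 TPM, against 3.06 TPM in Control 3). Hbb-bh1 was highest in Control 3, at 5.54, 1.03 and 11.55 TPM in Control 1, 2 and 3. In the EPZ5676 libraries Hbb-bt and Hbb-bh1 kept the order. The median pairwise r of the list was 0.434. Hba-a1 and Hba-a2 are near-identical copies, so the division of their counts is uncertain.

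Most ribosomal protein genes rose with Sftpc, and the list had the highest median pairwise r of the lists, 0.932. Of 36 tested, 28 rose and none fell, with a median slope of 0.24 (15 rose and none fell on log2(TPM + 1)), and 35 of 36 were above the treatment mean in Control 3 and 35 in EPZ5676 2, against 2 each in Control 1 and EPZ5676 1. Rpl5, a protein of the large subunit, was at 107, 101 and 184 TPM in the controls and 117, 151 and 106 TPM in the EPZ5676 libraries (slope 0.47, SE 0.082, edgeR adjusted p = 0.0271), and the slope of Rpl5 was 0.29 without Control 3 and 0.27 on log2(TPM + 1), where it did not pass either time. Rpl23, chosen after its values were seen, was at 1639, 2162 and 2805 TPM and at 1679, 2568 and 2040 TPM, lowest in Control 1 and EPZ5676 1 and highest where Sftpc was highest. Of the 563 genes that rose, 73 (13%) had names beginning with Rpl or Rps and a digit. The share was 0.801% of all tested genes and 0 of the 326 that fell. Names of this form also belong to pseudogenes and copies, such as Rpl35a-ps4, which were not separated in these counts. Genes that rose had a median exonic length of 3675 bases, genes that fell 5301 bases and all tested genes 4410 bases. The share of mitochondrial counts was 4.07%, 4.73% and 5.40% in Control 1, 2 and 3 and 4.36%, 4.75% and 4.64% in the EPZ5676 libraries, so it had the order of Sftpc in both treatments. The part of gene length, RNA quality and mitochondrial share in the pattern was not tested.

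Alveolar genes did not move as a single block. Of 16 tested members of the alveolar type 1 list, 7 rose with Sftpc and none fell (median slope 0.17, and 0.037 on log2(TPM + 1)). Pdpn, a surface glycoprotein of type 1 cells, was at 12.4, 15.1 and 33.8 TPM in the controls and 18.3, 28.9 and 22.2 TPM in the EPZ5676 libraries (slope 0.54, SE 0.066, edgeR adjusted p = 0.00602). Hopx, a homeodomain protein of type 1 cells, was at 8.11, 17.2 and 24.6 TPM and at 20.0, 26.8 and 26.9 TPM (slope 0.52, SE 0.099, edgeR adjusted p = 0.0248; slope 0.34 without Control 1, where it did not pass). Both were lowest in Control 1 and EPZ5676 1. Ager, another type 1 marker, was highest in Control 3 (32.0 TPM) but in the treated libraries was highest in EPZ5676 1 (25.4 TPM). The type 2 list, to which Sftpc belongs, showed little shared variation: 1 of its 14 other members rose with Sftpc (Etv5, a transcription factor that responds to FGF signalling, slope 0.28, SE 0.047, edgeR adjusted p = 0.0156) and the median correlation between members was -0.031. Slc34a2, a phosphate transporter of type 2 cells, was at 2.54 TPM in Control 1, at most 1.58 TPM in the other controls, and 4.17, 9.73 and 0.95 TPM in the EPZ5676 libraries, and Cxcl15, a lung chemokine, was lowest in Control 3 (3.34 TPM) where Sftpc was at its control maximum. The gene with the smallest p for its slope on Sftpc among those most alike was Enpep, an aminopeptidase, at 27.1, 54.5 and 102 TPM in the controls and 38.1, 83.5 and 56.6 TPM in the EPZ5676 libraries (r = 0.994, slope 0.70, SE 0.042, edgeR adjusted p = 0.00142).

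Genes shared by all epithelia did not rise with Sftpc. Of 28 pan-epithelial members tested, 4 fell against it and none rose (median slope -0.20; 15 fell on log2(TPM + 1), and none without Control 3), and the 28 genes had a median pairwise r of 0.807. Grhl1, a grainyhead factor of epithelia, was at 6.21, 4.40 and 0.93 TPM in the controls and 5.98, 2.28 and 8.18 TPM in the EPZ5676 libraries. Elf3, an epithelial ETS factor, was at 12.3, 11.4 and 3.53 TPM in the controls and varied little in the EPZ5676 libraries (11.8 to 15.3 TPM). Only 1 of 28 members was above the treatment mean in Control 3 and 2 in EPZ5676 2, while 27 were above it in Control 2 and 25 in EPZ5676 3. Sox2, which marks proximal airway epithelium, was also lowest in Control 3 and EPZ5676 2, at 36.1, 27.8 and 3.79 TPM and at 32.6, 13.0 and 29.3 TPM. Foxa1 and Foxa2, forkhead factors of endoderm, were also lowest in Control 3 (21.7 and 17.5 TPM) and in EPZ5676 2 (24.1 and 30.4 TPM). Nkx2-1 did not follow them, with deviations between -0.14 and 0.14 in all 6 libraries. The pan-epithelial members that passed were Cdh1, Esrp2, St14 and Lsr, named after their values were seen.

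In mesenchymal lists outside muscle few members passed. In the lung mesenchyme list, 2 of 26 tested members rose with Sftpc and 1 fell, a share near that of all tested genes (3.99% rising and 2.31% falling). Wnt2, a ligand of distal lung mesenchyme, was at 11.2, 18.6 and 22.2 TPM in the controls and 15.1, 24.2 and 10.4 TPM in the EPZ5676 libraries (slope 0.44, SE 0.097, edgeR adjusted p = 0.039). Hhip, a hedgehog-binding target gene, was at 68.5, 29.7 and 16.5 TPM and at 60.4, 21.5 and 32.2 TPM, the reverse order in the controls (slope -0.45, SE 0.057, edgeR adjusted p = 0.00716; slope -0.72 on log2(TPM + 1)). Tnc, a matrix glycoprotein, fell as Sftpc rose (slope -0.56, SE 0.042, edgeR adjusted p = 0.00236), and Ogn, a small leucine-rich proteoglycan, rose (slope 0.48, SE 0.090, edgeR adjusted p = 0.0354), with a slope for Ogn of 0.25 without Control 3, where it did not pass. In the collagen and matrix list as a whole, 2 of 25 members rose and 1 fell, again near the share of all genes, and the median slope was 0.0041.

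**Figure D3:**
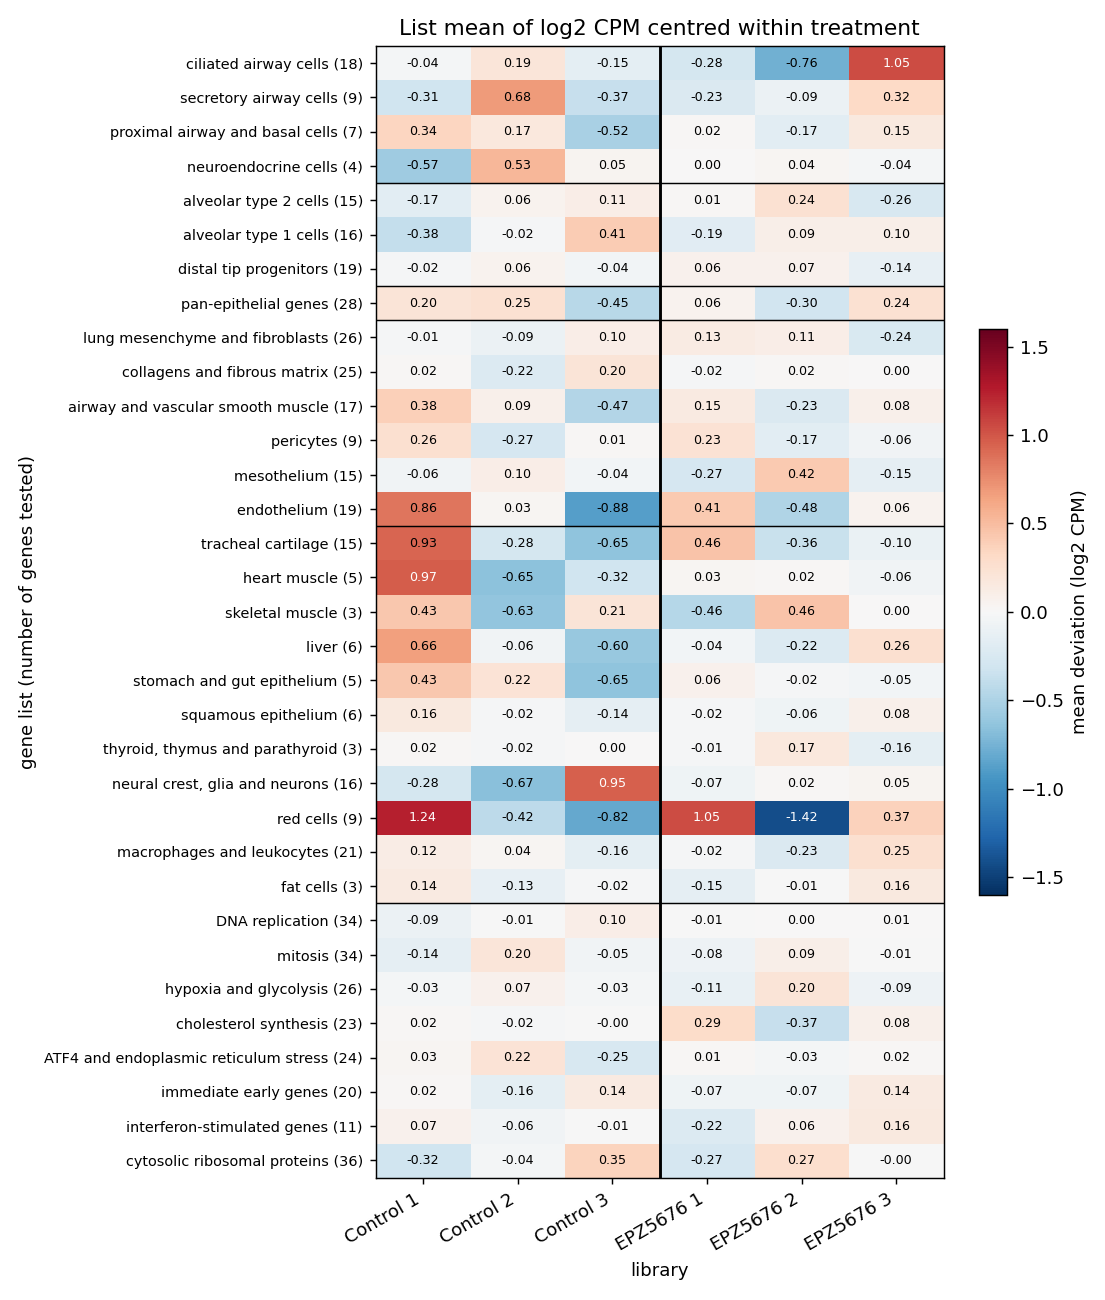
Mean deviation of each list (rows, number of tested genes in brackets) in each library (columns), on log2 CPM centred within treatment; red is above and blue below the treatment mean, and lists with fewer than 3 tested genes are left out. Endothelium, cartilage and red cells are high in Control 1 (0.86, 0.93 and 1.24) and low in Control 3, ciliated genes stand out in EPZ5676 3 (1.05) and neural genes in Control 3 (0.95).

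Ciliated cell genes varied together among the EPZ5676 libraries, along a different order. Foxj1, the master regulator of motile cilia, was at 1.79, 1.95 and 0.33 TPM in Control 1, 2 and 3 and at 20.8, 6.72 and 34.3 TPM in EPZ5676 1, 2 and 3. Rsph1, a radial spoke protein, was at 1.44, 1.34 and 1.20 TPM in the controls and 10.2, 3.53 and 50.1 TPM in the EPZ5676 libraries. Mcidas, which starts the multiciliated programme, was at 1.55, 2.16 and 0.09 TPM in the controls and 6.30, 4.12 and 14.5 TPM in the EPZ5676 libraries. All 3 were highest in EPZ5676 3 and lowest in EPZ5676 2 among treated libraries, and Foxj1 and Mcidas were also low in Control 3 among the controls. Of 22 listed genes 18 were tested, and all 18 were above the treatment mean in EPZ5676 3 and none in EPZ5676 2, with list mean deviations of -0.28, -0.76 and 1.05 in EPZ5676 1, 2 and 3. In the controls the list means were -0.035, 0.19 and -0.15. Only 12, 10 and 7 of the 22 listed genes had at least 10 counts in Control 1, 2 and 3, against 20, 18 and 20 in EPZ5676 1, 2 and 3. Members could pass the filter through the EPZ5676 libraries alone. Control deviations, which also enter the pairwise r below, thus include values near the floor. Dnah11, a dynein heavy chain, was instead highest in Control 3 among the controls, at 0.31, 0.48 and 2.10 TPM. The median pairwise r over the 18 genes was 0.747, and it fell to 0.232 without EPZ5676 3, so much of it rests on that library. No ciliated gene passed on any of the 5 lineage genes.

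Promoters of 2 ciliated genes and 2 liver genes are shown as examples, picked after the search. Both lists had a library far above the others and a motif in several members, but other searched lists, such as tracheal cartilage, did too. The promoters come from RefSeq on GRCm38.p6, from 250 bases before to 50 bases after the start of the gene, with the match in capitals. GTTGCC followed by GG after any 2 bases, letters related to the X-box that RFX factors bind in cilia genes, are marked in the Deup1 promoter (chr9:15627797-15628096, minus strand, a match on the opposite strand) and the Ccno promoter (chr13:112987552-112987851, plus strand). The letters GTTAAT, letters that HNF1 factors of liver bind, mark the Afp promoter (chr5:90490464-90490763, plus strand) and the Alb promoter (chr5:90460620-90460919, plus strand).
Deup1: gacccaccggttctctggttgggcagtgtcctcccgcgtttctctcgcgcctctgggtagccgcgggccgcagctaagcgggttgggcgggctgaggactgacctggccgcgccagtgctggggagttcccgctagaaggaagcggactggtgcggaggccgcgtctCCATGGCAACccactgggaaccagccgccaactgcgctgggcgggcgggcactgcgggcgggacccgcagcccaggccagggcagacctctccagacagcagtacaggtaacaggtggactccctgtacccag
Ccno: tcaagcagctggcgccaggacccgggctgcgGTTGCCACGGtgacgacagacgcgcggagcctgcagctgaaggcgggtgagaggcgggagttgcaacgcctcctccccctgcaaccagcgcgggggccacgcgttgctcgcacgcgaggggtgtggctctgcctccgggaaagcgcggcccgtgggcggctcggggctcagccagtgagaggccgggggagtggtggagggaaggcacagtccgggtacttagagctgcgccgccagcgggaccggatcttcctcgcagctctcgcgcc
Afp: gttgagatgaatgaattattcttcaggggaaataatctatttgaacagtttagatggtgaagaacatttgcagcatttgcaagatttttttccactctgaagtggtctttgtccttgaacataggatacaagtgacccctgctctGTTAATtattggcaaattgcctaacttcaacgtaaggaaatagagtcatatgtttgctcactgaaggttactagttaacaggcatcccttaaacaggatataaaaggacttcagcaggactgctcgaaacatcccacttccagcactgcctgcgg
Alb: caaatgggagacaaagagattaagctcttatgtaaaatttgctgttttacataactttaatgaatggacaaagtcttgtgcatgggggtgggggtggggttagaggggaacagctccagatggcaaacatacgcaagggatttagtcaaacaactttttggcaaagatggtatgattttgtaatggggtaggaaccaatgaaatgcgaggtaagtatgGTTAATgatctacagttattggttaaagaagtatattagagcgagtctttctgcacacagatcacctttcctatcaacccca

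Of 18 ciliated genes with a promoter in the table, 4 (22.2%) held the X-box letters on either strand, against 2.59% of 27025 genes. The other 4 spellings searched were in 0, 1, 1 and 2 of the 18. Of 23 liver genes, 11 (47.8%) held GTTAAT, against 8.24% of all genes. These were picked after their values were seen, from 14 patterns searched on both strands in 6 lists. The others were the 4 spellings of the X-box, which can overlap with the one shown, and 8 patterns of 6 to 10 letters without free positions, among them CATTCCA of TEAD factors and AGGAAAT of ETS factors. A match describes the letters only. Deup1, a deuterosome protein needed to multiply centrioles, was at 1.26, 0.94 and 0.17 TPM in the controls and 10.9, 6.39 and 32.4 TPM in the EPZ5676 libraries. Ccno, a cyclin of multiciliated cells, was at 4.67, 6.91 and 1.83 TPM and at 13.9, 9.30 and 27.2 TPM. Both genes were named for their promoters; they shared the order of Foxj1 in the treated libraries and were lowest in Control 3 among the controls.

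Secretory airway genes were highest in Control 2 and EPZ5676 3 as a list. Scgb3a2 was at 23.3, 59.0 and 47.4 TPM in the controls and 356, 172 and 579 TPM in the EPZ5676 libraries, lowest in Control 1 and EPZ5676 2 within their treatments. Cyp2f2, a cytochrome of club cells, was at 1.06, 12.9 and 0.60 TPM and at 13.2, 29.3 and 37.1 TPM. Cldn10, a claudin of airway secretory cells, was at 6.43, 29.2 and 14.5 TPM and at 15.3, 16.0 and 38.9 TPM. Of 9 tested members, 8 were above the mean in Control 2 and 7 in EPZ5676 3. No gene passed the slope on Scgb3a2 (edgeR lowest adjusted p = 0.538; 238 genes at an unadjusted p under 0.05, and 5 passed with DESeq2). The genes most like Scgb3a2 over the 6 libraries were Cetn4, a centrin (r = 0.991), and Spef2, a sperm flagellar protein (r = 0.973), neither of which passed. As a description, the list means of ciliated and secretory genes had r = 0.532 over the 6 libraries. Within the 3 controls r was 0.955 and within the 3 EPZ5676 libraries 0.87, and both lists share the same libraries. The control value does not describe most ciliated members. Their median deviations were -0.074, 0.063 and 0.077 in Control 1, 2 and 3, so Control 3 was lowest on means but not on medians.

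Neural crest, glia and neuron genes were high in Control 3. Tubb3, a neuronal tubulin, was at 15.8, 5.09 and 33.1 TPM in the controls and 11.1, 8.35 and 9.02 TPM in the EPZ5676 libraries. Prph, a peripheral neuron filament, was at 11.95, 6.55 and 34.0 TPM and at 12.6, 14.0 and 8.43 TPM. Elavl3, a neuronal RNA-binding protein, was at 1.37, 0.33 and 3.01 TPM and at 0.92, 0.84 and 0.79 TPM. All 3 were highest in Control 3 and lowest in Control 2, and the EPZ5676 libraries lay closer together. Fabp7, of the same list, was also highest in Control 3 but lowest in Control 1 (2.57, 5.74 and 15.16 TPM). It was at 2.68, 5.69 and 6.07 TPM in the EPZ5676 libraries (slope on Sftpc 0.82, edgeR adjusted p = 0.0314). Of 16 tested members, 15 were above the mean in Control 3 and 2 in Control 2 (mean deviations 0.95 and -0.67). The median slope of the list on Sftpc, 0.38 (1 member rose and 1 fell), was -0.056 without Control 3, where none passed.

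**Figure D4:**
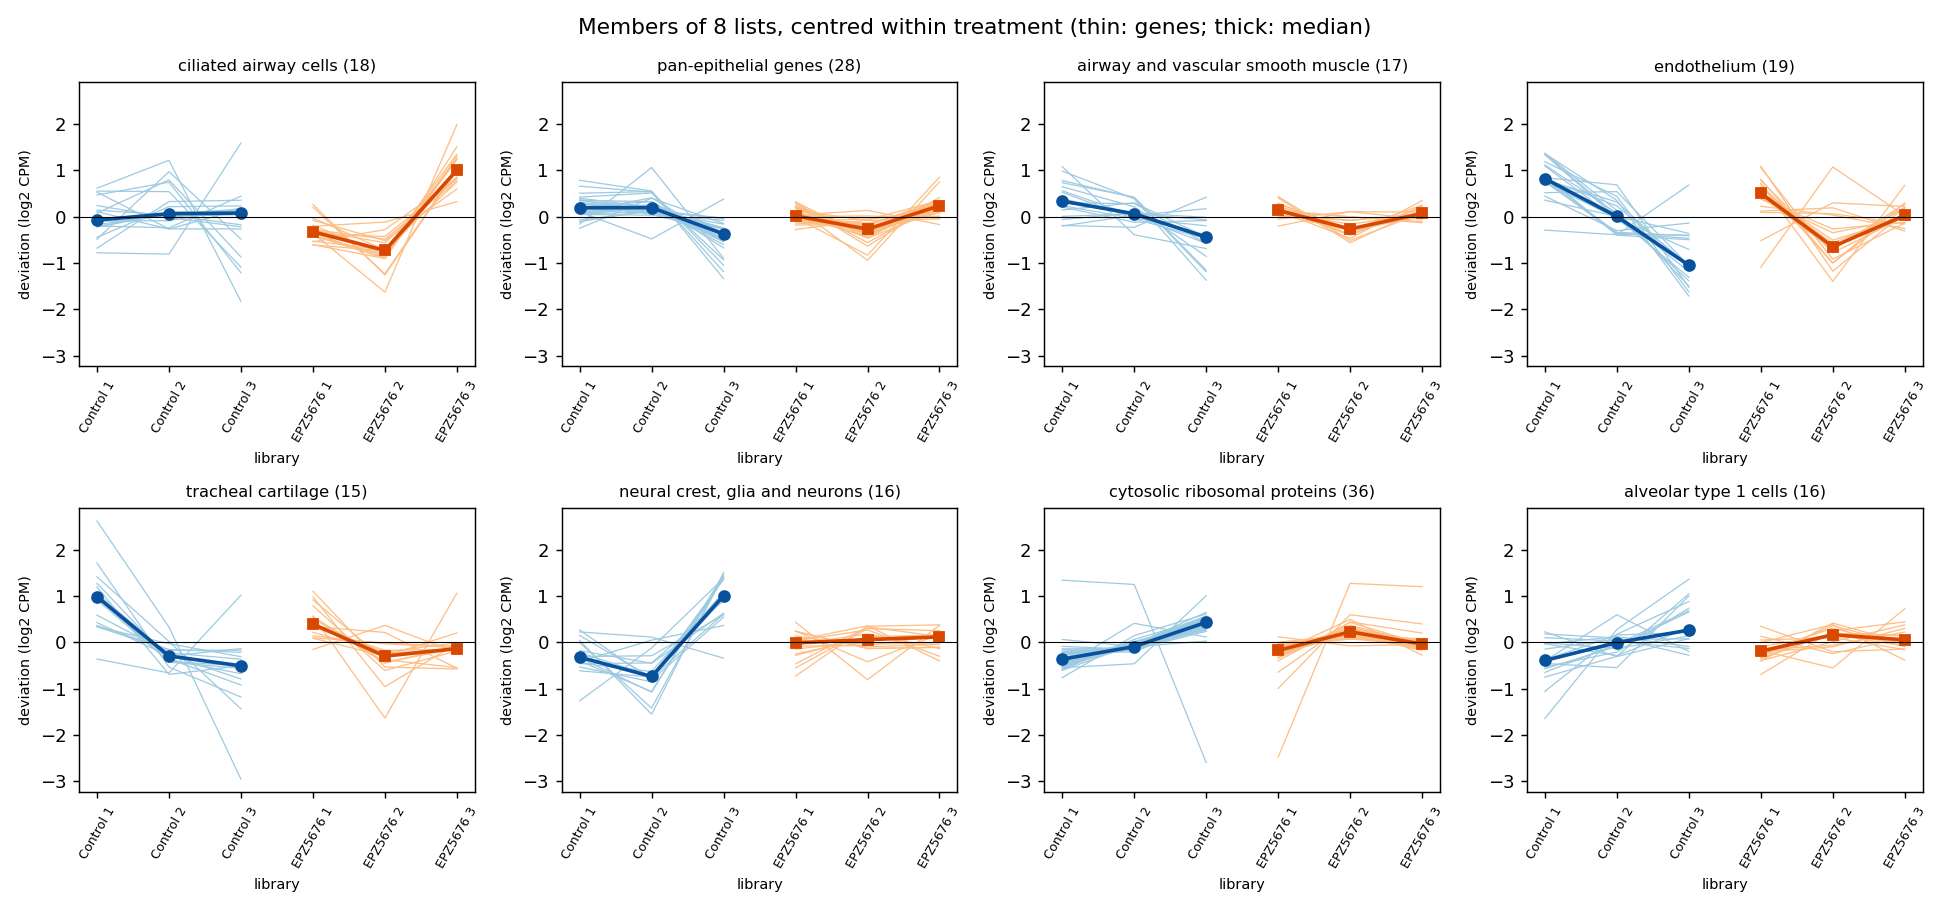
Deviation of every tested member of 8 lists (y axis, log2 CPM centred within treatment) in each library (x axis), with thin lines for genes, thick lines for the median, blue for controls and orange for EPZ5676. Endothelium and cartilage are high in Control 1 and EPZ5676 1 and low in Control 3 and EPZ5676 2, while all 18 ciliated genes are above the treatment mean in EPZ5676 3 and none in EPZ5676 2.

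Liver and heart genes were most widely detected in Control 1. Afp was at 112 TPM in Control 1 and at 0.12 to 1.19 TPM in the other 5 libraries. Alb, serum albumin, was at 63.3 TPM in Control 1 and at 0 to 0.20 TPM in the others. Of 29 listed liver genes, 25 had at least 10 counts in Control 1, against 5 to 7 in each of the others. Most of these did not pass the filter, which removes genes seen in a single library, and only 6 were tested. Some of those 6 were present in every library, such as Trf, transferrin, at 77.4, 27.6 and 13.3 TPM in the controls and 48.3, 34.3 and 61.6 TPM in the EPZ5676 libraries. Myh6, the atrial myosin heavy chain, was at 13.2 TPM in Control 1 and 0.31 to 1.24 TPM elsewhere, and 16 of 23 heart genes had at least 10 counts there, against 4 to 8 in the others. Myl7, an atrial light chain named after its values were seen, was at 58.0 TPM in Control 1 and next highest in EPZ5676 2 (10.6 TPM). Nkx2-5, a cardiac factor, had 1 count in Control 1 and 0 in the others. On Afp, 1 of 14112 genes passed (0.00709%, edgeR), the predicted gene Gm10184, named after its values were seen, and 1401 had an unadjusted p under 0.05 (61 genes passed with DESeq2). Control 1 thus held liver and heart transcripts and also the most cartilage, vessel and red cell transcripts among the controls. EPZ5676 1 had mean deviations of 0.46 for cartilage and 0.41 for endothelium, against 0.93 and 0.86 in Control 1, with Afp at 1.19 TPM and Alb at 0.20 TPM. Without Control 1 the median slope on Sftpc was -0.62 for endothelium and -0.31 for cartilage; the part of liver and heart tissue in the wider pattern was not tested. Of 21 stomach and gut genes, 4 to 7 had at least 10 counts in a library: Cdx2 was listed at 0 in all 6, while Gata4, a factor of heart and foregut, was at 3.29 to 13.3 TPM. Of 20 squamous genes 4 to 6 did so, with Krt13 listed at 0 and Perp, a desmosome protein, at 6.54 to 27.7 TPM. Of 18 skeletal muscle genes 2 to 8 did so, with Myod1 at 0 to 0.19 TPM and Mylpf, a fast myosin light chain, at 4.06 to 8.85 TPM.

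Several cell-state lists varied together with small amplitude. The 34 mitosis genes had a median SD of 0.178 but a median pairwise r of 0.687, and all 34 were above the mean in Control 2. Ncapg, a condensin subunit, was at 39.9, 60.9 and 45.8 TPM in the controls and 43.5, 57.3 and 46.1 TPM in the EPZ5676 libraries, highest in Control 2 and EPZ5676 2. Plk1, a mitotic kinase, was instead lowest in Control 3 (26.1 TPM, against 56.9 and 48.4 TPM). All 23 tested cholesterol synthesis genes were above the mean in EPZ5676 1 and 1 was in EPZ5676 2, with mean deviations of 0.29 and -0.37, while the controls stayed within 0.020 of 0 (on log2(TPM + 1) they were at 0.21, -0.0096 and -0.20). Mvd, an enzyme of the mevalonate pathway, was at 38.0, 17.2 and 22.7 TPM in EPZ5676 1, 2 and 3. Of stress genes, Chac1 and Trib3, targets of ATF4, were low in Control 3 (1.25 and 3.38 TPM, against 13.0 to 13.1 and 13.1 to 16.0 TPM in the other controls). Dusp1, an immediate early phosphatase, was at 18.9, 16.4 and 61.2 TPM in the controls and 13.4, 26.3 and 17.6 TPM in the EPZ5676 libraries (slope on Sftpc 0.63, SE 0.11, edgeR adjusted p = 0.024), and the slope of Dusp1 was 0.33 without Control 3, where it did not pass.

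The first principal component of the centred values held 45.1% of the variance, the second 27.2% and the third 15.8%. The first had scores of 0.305, 0.041 and -0.346 in Control 1, 2 and 3 and 0.208, -0.214 and 0.00606 in EPZ5676 1, 2 and 3. Its leading genes included Hbb-bs, Hba-a1, Acan, Esm1 (an endothelial proteoglycan), Lrat (a retinol esterifying enzyme, highest in Control 3 and EPZ5676 2) and several ribosomal pseudogenes and copies with values near 0 in some libraries, such as Rps3a3 at 0.77, 3.96 and 1831 TPM in the controls and 0.48, 730 and 2.72 TPM in the EPZ5676 libraries. Such counts are divided between near-identical copies and are uncertain, as is Rps2 (44.2 TPM in Control 3 and 57.2 TPM in EPZ5676 1, 680 to 842 TPM elsewhere). The third component separated EPZ5676 3 from EPZ5676 2, with Rsph1, Lrrc23 and Cfap206, all axonemal genes, among its leading genes on the side of EPZ5676 3. Lrrc23, a radial spoke protein, was at 27.7, 11.8 and 90.5 TPM in the EPZ5676 libraries and 0.36 to 0.64 TPM in the controls.

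The first axis of each treatment alone had r = 0.372 with that of the other across 14112 genes. Between libraries at the ends of the pattern, the difference of Control 1 and Control 3 had r = 0.444 with the difference of EPZ5676 1 and EPZ5676 2, and 67.6% of genes had the same sign. These libraries were chosen after seeing their values, which favours a positive r, genes are not independent replicates, and no test was made. Of the list members, 16 of 19 endothelial, 14 of 15 cartilage, 14 of 17 smooth muscle and 22 of 28 pan-epithelial genes were higher in the first library of both differences, and 34 of 36 ribosomal protein genes were lower in both.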

How the data were processed

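RNA-seq of 9 libraries was deposited, and the 6 cultured ones were used. The authors deposited expected counts per gene, which were rounded, and TPM; RSEM, Bowtie2 and mm10 are named, without versions or roles, in the submitters' processing notes, and no source used here gives the strand setting. Overlapping and antisense genes therefore cannot be told apart. Positions came from GENCODE M21 and promoters from RefSeq (GRCm38.p6).

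Autosomal genes passing filterByExpr (minimum count 10) were scaled by TMM, and log2 CPM (prior count 2) was centred within treatment. Slopes on each of 5 lineage genes were tested with edgeR 4.0.16 in R 4.3.3 (quasi-likelihood, treatment in the model, 3 residual degrees of freedom, two-sided, Benjamini-Hochberg, 0.05). Afp did not pass the filter, so its levels were taken from the unfiltered table. Gene pairs were tested by exact permutation. Counts of replicates differed by 7.76 to 27.1 times sampling noise (chi-square over its degrees of freedom), and no library was a duplicate.

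Members and lists were chosen with earlier results of these data known. Genes named are the 5 lineage genes, up to 4 members of each list with the largest centred SD (mean TPM of at least 1), the 5 genes most alike and 3 most opposite to each lineage gene (centred SD of at least 0.5), and the 8 leading genes each way of the components; predicted and clone names are left out, and the text gives a selection. Marker genes used to check tissue identity, and others said to be so, were added.

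On simulated data with 14112 genes and slopes on Sftpc, edgeR recovered 5.97%, 68.7% and 95.5% of slopes of 0.25, 0.5 and 1, with 8.87% false calls (DESeq2 19.2%, limma 11.5%). Alternatives were RLE and upper-quartile scaling, other filters, DESeq2 1.42.0, limma 3.58.1 on log2(TPM + 1) and log2(TPM + 0.1), a prior count of 0.5, all chromosomes, the replicate number as a block, medians over members, and leaving out each library. Counts thinned to equal depth were added after seeing the data.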

Additional observations from a re-analysis of the deposited data

How the results depend on the processing

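Under RLE and upper-quartile scaling, DESeq2, a filter of 50 counts in 3 libraries and thinned counts, the numbers of genes that varied with Sftpc and Col2a1 stayed within 1.5 times of 889 and 958. With no filter they were 1755 and 1789 (7 for Scgb3a2, 13 for Acta2, 48 for Afp). With DESeq2, 5, 40 and 61 genes varied with Scgb3a2, Acta2 and Afp. On log2(TPM + 1) the counts for Sftpc, Col2a1, Acta2 and Afp were 1382, 1442, 3 and 4, and on log2(TPM + 0.1) 1463, 1448, 3 and 4; with all chromosomes 2 genes varied with Afp. Same-numbered libraries had deviation correlations of 0.486, 0.0461 and -0.101. These values are too few, and too tied by centring within treatments, to show whether same-numbered libraries were paired. With the replicate number as a block, 914 genes varied with Sftpc (392 shared), 1217 with Col2a1, 1106 with Acta2, 0 with Afp and 5552 beyond counting noise. The slope fits with this block left 1 residual degree of freedom, against 3 in the main fit, so their counts are unreliable. None of the 1106 genes passed on Acta2 in the main fit.

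Leaving out each library gave 2 to 1262 genes for Sftpc, 2 to 1274 for Col2a1, 0 to 18 for Scgb3a2, 0 to 3 for Acta2 and 0 to 231 for Afp, and components 1 to 3 held 45.5% to 58.4%, 21.9% to 34.4% and 14.7% to 22.0% (component 1 on log2(TPM + 1) 49.6%).

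With a library left out, the correlation ranged as follows: Scgb3a2 with Sftpc -0.519 to 0.788, Scgb3a2 with Acta2 -0.829 to 0.893, Scgb3a2 with Col2a1 -0.84 to 0.442, Sftpc with Afp -0.945 to -0.185, Col2a1 with Afp 0.399 to 0.921, ciliated cells with secretory cells 0.459 to 0.867, ciliated cells with type 2 cells -0.984 to -0.488, secretory cells with type 2 cells -0.708 to 0.314, type 2 cells with type 1 cells 0.0278 to 0.887, type 2 cells with distal tip progenitors 0.169 to 0.916, pan-epithelial genes with lung mesenchyme -0.862 to -0.634, pan-epithelial genes with collagens -0.838 to -0.181, pan-epithelial genes with mesothelium -0.828 to 0.508, smooth muscle with collagens -0.959 to 0.707, cartilage with liver 0.444 to 0.956, liver with heart muscle -0.879 to 0.953 and neural crest with smooth muscle -0.936 to 0.745. The liver mean used here rests on the 6 tested genes of 29. It leaves out Afp and includes genes present in every library, such as Trf. It had r = 0.996 with the mean of the squamous list, so it does not stand for liver tissue. The heart mean rests on 5 tested genes of 23. The median pairwise r of type 2 genes ranged from -0.105 to 0.0155, positive without EPZ5676 2.

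On log2(TPM + 1) and log2(TPM + 0.1), these correlations of list means changed sign: alveolar type 2 with type 1 (-0.246 and -0.342), pan-epithelial with lung mesenchyme (0.233 and 0.197) and with collagens (0.138 and 0.111), and smooth muscle with collagens (0.373 and 0.372). On log2(TPM + 0.1) alone, secretory with alveolar type 2 was 0.000474 and pan-epithelial with mesothelium 0.0489. With 50 counts in 3 libraries pan-epithelial with lung mesenchyme was -0.607. On the TPM scale, the median deviation of all genes shifted by 0.168 in Control 1 and -0.175 in Control 3, and, among list means at least 0.1 from 0 on counts, the sign changed for alveolar type 2, lung mesenchyme, DNA replication and immediate early genes in Control 3, gut in Control 2, fat in EPZ5676 1 and mitosis in Control 1. The cause of these changes was not tested. Depth limits genes with few counts, such as liver, heart and gut genes and, in the controls, ciliated genes.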
